A study of Solanum pimpinellifolium with 60 samples.

Results

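Flavonoids are phenolic compounds that plants make from phenylalanine, and in flowers and young shoots they serve as pigments and sunscreens. Phenylalanine ammonia-lyase (PAL) takes phenylalanine into the phenylpropanoid pathway, chalcone synthase (CHS) starts the flavonoid branch, flavonoid 3'-hydroxylase (F3'H) adds a hydroxyl group to the B ring, and flavonol synthase (FLS) makes flavonols. Further enzymes of the same branch lead to anthocyanins, the red to blue pigments. The 5 genes described were taken by their identifiers out of the 34725 genes of the count table: PAL (Solyc09g007910), CHS1 (Solyc09g091510), CHS2 (Solyc05g053550), F3'H (Solyc03g115220) and FLS (Solyc11g013110). Their identifiers place CHS1 and PAL on chromosome 9, CHS2 on chromosome 5, F3'H on chromosome 3 and FLS on chromosome 11. The study's tables pair PAL, CHS1 and FLS with the Arabidopsis genes PAL1, CHS and FLS1, and the names of CHS2 and F3'H come with the choice of genes alone.

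The libraries were made for 3′ Tag RNA-seq, which reads the 3′ end of each mRNA, in near isogenic lines (NILs) and their wild type. The lines were lc, which carries the tomato allele of LOCULE NUMBER near SlWUS on chromosome 2, fas, which carries the tomato allele of FASCIATED, an inversion at SlCLV3 on chromosome 11, and the double line lc/fas. The wild type (WT) was taken from the same backcross population, in the background of Solanum pimpinellifolium LA1589. The NILs came from repeated backcrosses of tomato to LA1589, so each also holds the tomato copies of the genes that neighbour its allele. Plants were 5 to 7 weeks old and grown in a greenhouse, and tissue came from pooled first and second inflorescences. The 5 stages were the sympodial shoot apical meristem (SYM), the floral and inflorescence meristems (F&IM), and buds dissected 2, 4 or 6 days after a floral meristem formed (days post initiation, dpi). Every combination of genotype and stage had 3 replicates, which makes 20 groups and 60 libraries. Stages of the same genotype and replicate number are called a replicate set here, because the study gathered inflorescences for each replicate and then dissected the stages from them.

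Libraries held 441291 to 9172182 counts with a median of 4712036, and the smallest was fas at 6 dpi, replicate 3, in which PAL had 7 counts. Levels are given as RPM, the counts of a gene per 1000000 counts of its library, and since a 3′ tag library yields about 1 tag per mRNA, RPM does not depend on gene length. The stage labels were checked on listed marker genes, none of which was at 0 in all libraries. The sum of 3 meristem genes (SlWUS, SlCLV3 and STM) was 248 to 415 RPM in the SYM, 420 to 616 in the F&IM and 70.4 to 127 at 6 dpi. The sum of 7 floral organ MADS-box genes was 49.6 to 82.4 RPM in the SYM and 3662 to 5255 at 6 dpi, while 3 genes listed for anther and tapetum summed to at most 2.05 RPM in any library. The 2 trichome genes listed, for the leaf and stem hairs in which flavonoids also accumulate, summed to 82.1 to 131 RPM over all stages. In whole organs and meristems, a lower RPM can come from fewer cells that express a gene or from less mRNA per cell, and these cannot be told apart.

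All 5 genes were detected in all 60 libraries, and their main steps fell at different stages. PAL rose at 2 dpi, CHS1 rose at 4 dpi with the largest step of the 5 genes and again at 6 dpi, and CHS2, after a smaller rise in the F&IM, and FLS rose at 6 dpi. F3'H moved the other way and was highest in the F&IM. Each step was tested over the 4 genotypes with edgeR on the 18901 genes that passed the filter on low counts, and a gene was called at a Benjamini-Hochberg adjusted p under 0.1. Most stage steps changed a large part of the transcriptome, so counts of called genes are read against the share of all tested genes that was called.

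**Figure D1:**
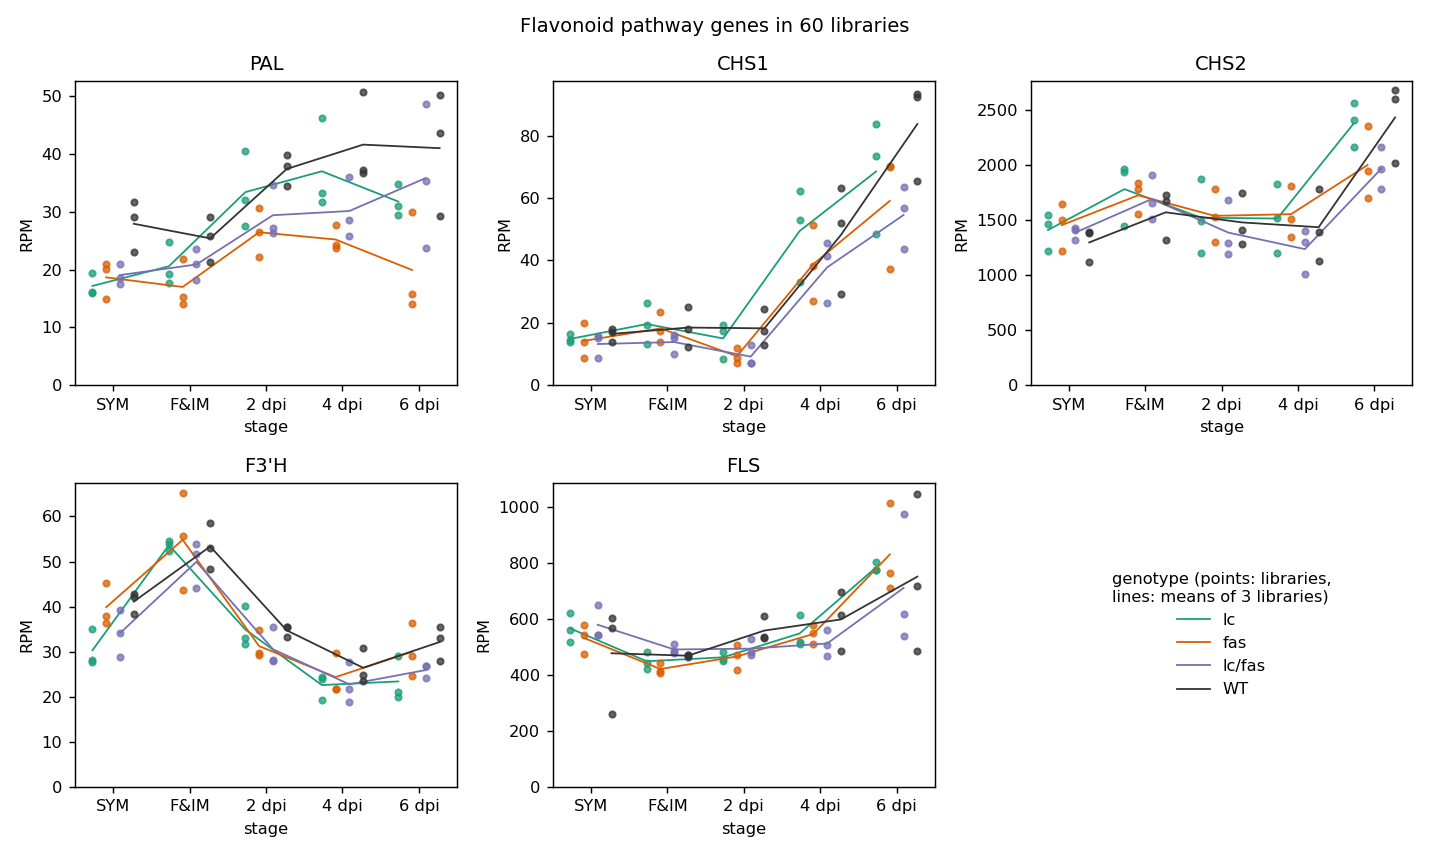
Level of PAL, CHS1, CHS2, F3'H and FLS (y axis, RPM, from 0) in each of the 60 libraries (points) at the 5 stages (x axis), with lines through the means of 3 libraries for lc, fas, lc/fas and WT. All 12 libraries of 4 dpi lie above all 12 libraries of 2 dpi for CHS1, and all 12 libraries of 2 dpi lie below all 12 of the F&IM for F3'H.

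PAL, the entry enzyme of the pathway, ranged from 14.96 to 31.7 RPM in the SYM with a median of 19.8, from 14.0 to 29.1 in the F&IM with a median of 21.1, and from 22.3 to 40.6 at 2 dpi with a median of 31.4. At 4 dpi it ranged from 23.7 to 50.8 RPM with a median of 32.4, and at 6 dpi from 14.0 to 50.2 with a median of 30.5. The meristem stages overlapped almost fully, and the buds lay higher with overlap between single libraries. From the F&IM to 2 dpi the log2 fold change of PAL was 0.63 (SE 0.12, adjusted p = 1.63e-05), and all 12 of 12 replicate sets were higher at 2 dpi. Neither later step of PAL was called, with 0.09 (SE 0.11) at 4 dpi against 2 dpi and 0.00 (SE 0.11) at 6 dpi against 4 dpi.

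CHS1 had the sharpest onset. It ranged from 8.66 to 20.03 RPM in the SYM with a median of 14.8, from 10.03 to 26.3 in the F&IM with a median of 16.7, and from 7.12 to 24.5 at 2 dpi with a median of 12.5. It then ranged from 26.2 to 63.2 RPM at 4 dpi with a median of 43.6, and from 37.3 to 93.3 at 6 dpi with a median of 67.7. No library of 4 dpi overlapped a library of 2 dpi. The log2 fold change of 4 dpi against 2 dpi was 1.80 (SE 0.17, adjusted p = 1.4e-13) and that of 6 dpi against 4 dpi was 0.62 (SE 0.15, adjusted p = 0.00178), each positive in all 12 replicate sets. A dip came before the rise, as CHS1 fell by 0.44 on the log2 scale at 2 dpi against the F&IM (SE 0.17, adjusted p = 0.0488), with 10 of 12 replicate sets lower. That call was lost without lc/fas replicate 2 (adjusted p = 0.11) and without a filter on low counts (adjusted p = 0.112).

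CHS2, the other chalcone synthase, was abundant at every stage, above 99.9% of all genes in the table by its mean of 1638 RPM. It ranged from 1114 to 1647 RPM in the SYM with a median of 1402, from 1315 to 1963 in the F&IM with a median of 1698, and from 1187 to 1877 at 2 dpi with a median of 1450. At 4 dpi it ranged from 1011 to 1826 RPM with a median of 1394, and at 6 dpi from 1697 to 2680 with a median of 2164. The first 4 stages overlapped, and most libraries of 6 dpi lay above them. The log2 fold change of CHS2 was 0.27 in the F&IM against the SYM (SE 0.09, adjusted p = 0.0153), -0.16 at 2 dpi (SE 0.09, adjusted p = 0.156) and -0.03 at 4 dpi (SE 0.09, adjusted p = 0.82). At 6 dpi against 4 dpi it was 0.63 (SE 0.09, adjusted p = 6.61e-08), and all 12 replicate sets were higher at 6 dpi. The change of CHS2 at 2 dpi passed the threshold when the replicate number was a block (adjusted p = 0.0339) and without fas replicate 3 (adjusted p = 0.0745).

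Since both genes encode the same step, the share of CHS1 among the counts of CHS1 and CHS2 shows how the mix moved. The share had a median over 12 libraries of 1.08% in the SYM and 0.928% in the F&IM, and in buds of 0.729% (2 dpi), 2.94% (4 dpi) and 3.05% (6 dpi). It ranged from 0.544% to 1.39% at 2 dpi and from 1.76% to 3.61% at 4 dpi, so these stages did not overlap. CHS2 made up most of the counts in every library.

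F3'H, the B-ring hydroxylase, was highest in the F&IM. It ranged from 27.8 to 45.3 RPM in the SYM with a median of 37.2, from 43.7 to 65.2 in the F&IM with a median of 53.5, and from 28.0 to 40.1 at 2 dpi with a median of 33.1. At 4 dpi it ranged from 18.8 to 30.8 RPM with a median of 23.8, and at 6 dpi from 20.03 to 36.3 with a median of 27.4. All 12 libraries of 2 dpi were below every F&IM library. The log2 fold change was 0.52 in the F&IM against the SYM (SE 0.08, adjusted p = 2.04e-07), -0.66 at 2 dpi against the F&IM (SE 0.08, adjusted p = 6.48e-10) and -0.45 at 4 dpi against 2 dpi (SE 0.08, adjusted p = 1.25e-05). At 6 dpi against 4 dpi F3'H had 0.22 (SE 0.09, adjusted p = 0.0546), a call that was lost without any 1 of 6 replicate sets, which were WT 1 and 2, fas 1 and 2, and lc/fas 1 and 3 (adjusted p = 0.114 to 0.139), and without the filter (adjusted p = 0.138).

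FLS, the flavonol synthase, was also abundant throughout. It ranged from 261 to 651 RPM in the SYM with a median of 551, from 405 to 511 in the F&IM with a median of 467, and from 419 to 610 at 2 dpi with a median of 482. At 4 dpi it ranged from 467 to 695 RPM with a median of 534, and at 6 dpi from 486 to 1047 with a median of 768. The lowest SYM value belonged to WT replicate 3, whose other SYM replicates had 603 and 567 RPM. FLS fell by 0.25 on the log2 scale in the F&IM against the SYM (SE 0.09, adjusted p = 0.0319), with 11 of 12 replicate sets lower, but not without lc replicate 2 (adjusted p = 0.127). It was 0.15 at 2 dpi (SE 0.09, adjusted p = 0.214) and 0.17 at 4 dpi (SE 0.09, adjusted p = 0.143), and at 6 dpi against 4 dpi it rose by 0.50 (SE 0.09, adjusted p = 2.31e-05), in all 12 replicate sets. The 4 dpi change passed the threshold without WT replicate 1, WT replicate 3 or lc/fas replicate 1 (adjusted p = 0.0738 to 0.0952).

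Counted together, 3 of the 5 genes were called in the F&IM against the SYM (2 higher, 1 lower), where 31.4% of all tested genes were called. At 2 dpi against the F&IM 3 were called (1 higher, 2 lower) against 39.9% of all genes, and at 4 dpi against 2 dpi 2 were called (1 higher, 1 lower) against 43.2%. At 6 dpi against 4 dpi 4 were called, all higher, against 24.8% in either direction and 15.1% higher. All 5 differed at 6 dpi against the F&IM, where 63.6% of all genes were called: the log2 fold change was 1.98 for CHS1 (SE 0.16), 0.81 for FLS (SE 0.09), 0.72 for PAL (SE 0.12), 0.44 for CHS2 (SE 0.09) and -0.88 for F3'H (SE 0.08). With so large a part of all genes changing at each step, the number called says little about these 5, and their order and size are given as the description.

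The onset was then examined within each genotype, which asks whether the NILs kept the same stage. CHS1 increased at 4 dpi in all 4 genotypes. It had 33.0, 53.2 and 62.2 RPM at 4 dpi against 8.40, 17.4 and 19.2 at 2 dpi in lc, and 26.9, 38.1 and 51.5 against 7.12, 8.69 and 12.03 in fas. It had 26.2, 41.5 and 45.6 RPM at 4 dpi against 7.25, 7.24 and 12.9 at 2 dpi in lc/fas, and 29.4, 52.1 and 63.2 against 12.9, 17.2 and 24.5 in WT. Within each genotype the 3 libraries of 4 dpi were above the 3 of 2 dpi. The log2 fold change was 1.77 in lc (SE 0.35, adjusted p = 0.000343), 2.06 in fas (SE 0.37, adjusted p = 9.79e-05), 2.09 in lc/fas (SE 0.37, adjusted p = 7.09e-05) and 1.41 in WT (SE 0.34, adjusted p = 0.00353). In these comparisons 14.4%, 14.1%, 11.8% and 12.6% of all tested genes were called.

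F3'H fell at 2 dpi against the F&IM in all 4 genotypes, by 0.60 on the log2 scale in lc (SE 0.16, adjusted p = 0.018), 0.77 in fas (SE 0.16, adjusted p = 0.00128), 0.69 in lc/fas (SE 0.16, adjusted p = 0.00495) and 0.58 in WT (SE 0.16, adjusted p = 0.0201), where 5.85%, 6.29%, 5.48% and 7.51% of all genes were called. With 1 replicate set left out, the calls were lost in lc without lc replicate 1 or 3, in lc/fas without replicate 1 and in WT without replicate 2 or 3 (highest adjusted p = 0.197, 0.125 and 0.178). CHS2 rose at 6 dpi against 4 dpi in lc (0.65, SE 0.19, adjusted p = 0.0523), lc/fas (0.71, SE 0.19, adjusted p = 0.0206) and WT (0.77, SE 0.19, adjusted p = 0.00949), where 2.45%, 4.40% and 3.98% of all genes were called. In fas, where 6.24% were called, CHS2 had 0.38 (SE 0.19, adjusted p = 0.287). The CHS2 calls were lost in lc without replicate 1 or 2, in lc/fas without replicate 1 or 2 and in WT without replicate 2 (highest adjusted p = 0.569, 0.304 and 0.127).

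At 6 dpi against the F&IM, 5 genes were called in lc, 3 in fas, 4 in lc/fas and 5 in WT, where 36.8%, 45.3%, 32.7% and 34.6% of all genes were called. PAL had a log2 fold change of 0.71 in lc (SE 0.24, adjusted p = 0.0208), 0.38 in fas (SE 0.26, adjusted p = 0.245), 0.90 in lc/fas (SE 0.23, adjusted p = 0.00223) and 0.76 in WT (SE 0.22, adjusted p = 0.00762). The other single steps called within a genotype were PAL in lc at 2 dpi (0.73, SE 0.24, adjusted p = 0.0702), FLS in fas at 6 dpi against 4 dpi (0.63, SE 0.19, adjusted p = 0.0473), and F3'H in the F&IM against the SYM in lc (0.79, SE 0.17, adjusted p = 0.000833) and lc/fas (0.55, SE 0.16, adjusted p = 0.0341) and at 4 dpi in lc (-0.61, SE 0.17, adjusted p = 0.0142), where 9.15% and 6.54% of all genes were called in the F&IM in lc and lc/fas. Of these, F3'H in lc in the F&IM held without any 1 replicate set, F3'H in lc at 4 dpi was lost without lc replicate 1 or 2 (adjusted p = 0.193 and 0.13), and the other 3 were lost without any 1 set of their genotype (adjusted p = 0.116 to 0.341). At 6 dpi against the F&IM, the PAL calls were lost without lc replicate 1 or 2, without lc/fas replicate 1 and without WT replicate 1 (highest adjusted p = 0.158, 0.172 and 0.117), FLS calls without lc/fas replicate 2 (adjusted p = 0.298) and WT replicate 2 (adjusted p = 0.247), and the CHS2 call in lc without lc replicate 1 or 2 (adjusted p = 0.196 and 0.219). CHS2 was the other gene without a call in fas (0.27, SE 0.19, adjusted p = 0.251), and it had none in lc/fas (0.30, SE 0.19, adjusted p = 0.244). Whether the stage profile itself differed among the genotypes was asked with the genotype by stage interaction. None of the 5 genes was called by edgeR or DESeq2 (adjusted p = 1 for each in edgeR), and none had an unadjusted p under 0.05, where 0.0212% of all tested genes were called.

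**Figure D2:**
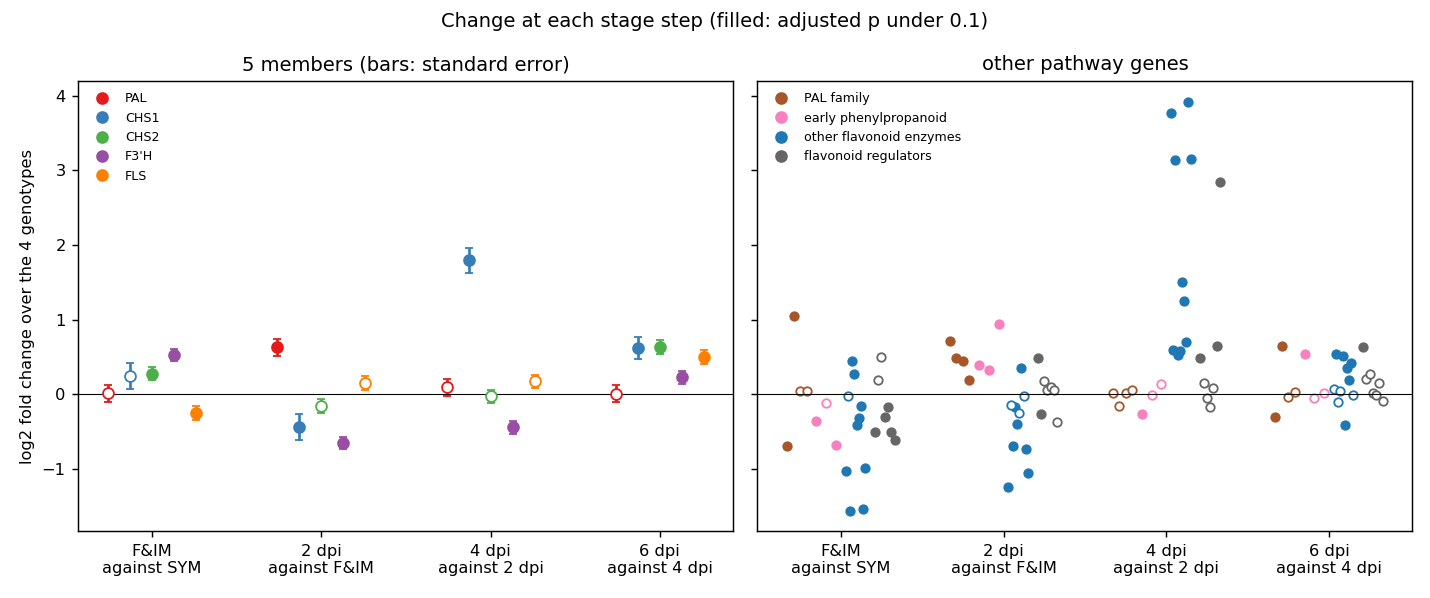
Log2 fold change at each of the 4 stage steps over the 4 genotypes (y axis) for the 5 genes (left, bars: standard error) and for single genes of 4 lists of other pathway genes (right), with filled points for an adjusted p under 0.1. CHS1 stands at 1.80 at 4 dpi against 2 dpi, the step at which the tested genes listed as other flavonoid enzymes were all above 0.

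The other genes of the pathway were taken from lists written from general knowledge of tomato, 43 genes in all. Earlier results of these data were known when the lists were chosen, so their counts are a description and not independent of the data. The genes are named only where the study's tables pair them with an Arabidopsis homolog. Those tables cover genes that the study selected on these libraries. Of the 11 genes listed as other flavonoid enzymes, 10 passed the filter on low counts, and all 10 rose at 4 dpi against 2 dpi, where 43.2% of all genes were called, by a median of 1.38 on the log2 scale against a median of -0.02 over all tested genes. The largest of these changes was 3.93. ANS, the anthocyanidin synthase, had medians of 14.5 RPM at 4 dpi and 5.51 at 2 dpi (log2 fold change 1.51, SE 0.16). The flavonoid glucosyltransferase 3GT had 0.70 (SE 0.07), F3H, the flavanone 3-hydroxylase, had 0.58 (SE 0.07) and CHIL, a chalcone isomerase-like protein, had 0.57 (SE 0.07).

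At the earlier steps more of the list fell than rose. In the F&IM against the SYM 9 of the 10 were called, 2 higher and 7 lower, where 31.4% of all tested genes were called, and at 2 dpi against the F&IM 7 were called, 1 higher and 6 lower, where 39.9% were. CHIL fell by 0.40 at 2 dpi (SE 0.07, adjusted p = 2.02e-05), the same direction as CHS1. At 6 dpi against 4 dpi, where 24.8% of all genes were called, 5 of the 10 rose and 1 fell, with 0.54 for F3H (SE 0.07), 0.51 for CHIL (SE 0.07) and a fall of 0.42 for ANS (SE 0.15). MYB12, the homolog of an Arabidopsis MYB factor that activates flavonol genes, fell by 0.51 in the F&IM (SE 0.11, adjusted p = 0.000295) and then rose at every step, by 0.48 at 2 dpi (SE 0.11), 0.48 at 4 dpi (SE 0.11) and 0.63 at 6 dpi (SE 0.11). Its median was 24.2 RPM in the F&IM and 61.1 RPM at 6 dpi.

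The genes upstream of CHS were also examined at each step. Of 8 other PAL genes listed, 4 passed the filter, and all 4 rose at 2 dpi against the F&IM, where 39.9% of all genes were called, with a median of 0.47 against -0.01 over all tested genes. Without TMM or without the filter on low counts only 2 of them were called, and 2 to 4 without 1 replicate set, with fewer than 3 when WT, lc or fas replicate 2 or 3 was left out. The PAL2 homolog Solyc05g056170 had 59.9 RPM at 2 dpi and 36.3 RPM in the F&IM (medians, log2 fold change 0.72, SE 0.11). Of 6 listed genes for the next 2 enzymes, cinnamate 4-hydroxylase and 4-coumarate:CoA ligase, 3 ligase genes passed the filter and all 3 rose at 2 dpi, and the ligase homolog Solyc06g068650 had 30.0 RPM at 2 dpi and 15.3 RPM in the F&IM (medians, log2 fold change 0.94, SE 0.13). Both of these homologs had been lower in the F&IM than in the SYM, by 0.70 for Solyc05g056170 (SE 0.11) and 0.68 for Solyc06g068650 (SE 0.13), and their medians in the SYM were 57.3 and 23.8 RPM. The ligase homolog Solyc03g097030 fell by 0.36 in the F&IM (SE 0.12, adjusted p = 0.0218), rose by 0.39 at 2 dpi (SE 0.12, adjusted p = 0.0107), fell by 0.27 at 4 dpi (SE 0.12, adjusted p = 0.075) and rose by 0.54 at 6 dpi (SE 0.12, adjusted p = 0.000635). At 4 dpi against 2 dpi the 4 other PAL genes had log2 fold changes between -0.16 and 0.06, and edgeR called 0 of them, with 0 at an unadjusted p under 0.05.

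PAL lies in a run of neighbouring PAL identifiers on chromosome 9, Solyc09g007890 to Solyc09g007920, and reads of near-identical copies may have been split between them, so values of single copies are uncertain. Solyc09g007890 was nearly silent, with at most 2.47 RPM in any library. Solyc09g007900, which the study pairs with the same Arabidopsis gene as PAL, had medians of 9.87 RPM (SYM) and 22.5 RPM (F&IM), then 28.1 (2 dpi), 25.5 (4 dpi) and 33.7 RPM (6 dpi). It was already called at an earlier step, with a log2 fold change of 1.04 in the F&IM against the SYM (SE 0.25, adjusted p = 0.000872), where PAL had 0.01 (SE 0.12). Solyc09g007920 had medians of 13.8 RPM in the SYM and 23.6 RPM at 6 dpi.

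Turning to the level in each genotype, PAL averaged lower in fas than in WT at each of the 5 stages. In the SYM it had 14.96, 21.0 and 20.03 RPM in fas against 23.0, 29.1 and 31.7 in WT, and in the F&IM 15.2, 21.8 and 14.0 in fas against 21.4, 25.8 and 29.1 in WT. At 2 dpi it had 22.3, 26.5 and 30.7 RPM in fas against 34.6, 39.8 and 37.9 in WT, and at 4 dpi 23.7, 24.2 and 27.8 in fas against 36.8, 37.3 and 50.8 in WT. At 6 dpi it had 14.0, 29.9 and 15.9 RPM in fas against 43.6, 29.3 and 50.2 in WT. Of the 15 fas libraries, 13 were below every WT library of their stage, and none was above. For PAL the number below was 11 of 15 in lc/fas and 9 of 15 in lc, where 1 was above. This was counted for the 5 genes only, so how often other genes reach such a number was not tested.

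Over the 5 stages, PAL fell by 0.69 on the log2 scale in fas (SE 0.10, adjusted p = 1.16e-05), the only 1 of the 5 genes called, where 2.22% of all tested genes were called. This fit takes the 5 stages of a replicate set as independent libraries, which can make its SE and p too small. The adjusted p stayed at or under 0.00364 when any 1 replicate set was left out, and was 0.00227 when limma-voom took the replicate set as a block. With the counts of the 5 stages summed per replicate set, which leaves 3 sums against 3, PAL had -0.67 (SE 0.16, unadjusted p = 0.00118) and was not called (adjusted p = 0.996). Averaged over the 2, 4 and 6 dpi buds PAL fell by 0.76 in fas (SE 0.14, adjusted p = 0.00266), where 0.259% of all genes were called, but not without WT replicate 3 (adjusted p = 0.142) or fas replicate 1 (adjusted p = 0.12). At 6 dpi alone it fell by 0.98 (SE 0.25, adjusted p = 0.0471), where 3.01% of all genes were called, a call lost without WT replicate 1, WT replicate 3 or fas replicate 1 (adjusted p = 0.259 to 0.408).

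CHS1 in fas had -0.45 over the 5 stages (SE 0.15, adjusted p = 0.118), which passed the threshold without WT replicate 1, lc replicate 1 or fas replicate 3 (adjusted p = 0.0138, 0.0842 and 0.0111). With the replicate number as a block edgeR called it (-0.43, adjusted p = 0.0013). Summed per replicate set it was not called (-0.54, unadjusted p = 0.0582, adjusted p = 0.9998). At 2 dpi CHS1 had 7.12, 8.69 and 12.03 RPM in fas, all below the lowest WT library at 12.9. Of the 15 fas libraries, 7 were below every WT library of their stage and 1 was above.

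In lc/fas, as in fas, PAL and CHS1 both averaged lower than in WT. The means over the 5 stages of the 3 replicate sets were 28.6, 22.5 and 30.1 RPM for PAL in lc/fas against 31.9, 32.3 and 39.9 in WT, and 20.5, 25.9 and 30.8 for CHS1 in lc/fas against 26.8, 40.8 and 43.4 in WT. For PAL the sets did not overlap, and for CHS1 they did. PAL fell by 0.36 on the log2 scale (SE 0.10, adjusted p = 0.0567) and CHS1 by 0.55 (SE 0.14, adjusted p = 0.0422), 2 of the 5 genes, where 1.65% of all tested genes were called. The replicate numbers were taken to pair lc/fas with WT, a choice made on these same libraries. The block was the replicate number over all genotypes, not over lc/fas and WT alone, and its values are read as a hint. With the block, lc/fas had -0.35 for PAL (adjusted p = 0.0121) and -0.52 for CHS1 (adjusted p = 4.2e-05). F3'H had -0.22 and was called with the block (adjusted p = 0.0611). Without the block F3'H was not called (adjusted p = 0.145) except without lc/fas replicate 3 (adjusted p = 0.0474). With the counts summed per replicate set none of the 3 was called (unadjusted p = 0.0818 for PAL, 0.077 for CHS1 and 0.0336 for F3'H, adjusted p = 0.9995 for each). Without the SYM, or with the replicate set as a block in limma-voom, neither PAL nor CHS1 was called (adjusted p = 0.418 and 0.441 for PAL, 0.14 and 0.3 for CHS1). The PAL call was also lost without WT replicate 3 or lc/fas replicate 2 (adjusted p = 0.588 and 0.541), and the CHS1 call without WT replicate 2 or 3 or lc/fas replicate 1 or 2 (adjusted p = 0.138 to 0.425).

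In the buds, CHS1 had a log2 fold change of -0.67 in lc/fas (SE 0.20) and -0.65 in fas (SE 0.20), and neither was called (adjusted p = 0.324 and 0.25), though the fas value was without fas replicate 3 (adjusted p = 0.0995) and the lc/fas value without WT replicate 1 (adjusted p = 0.0745). The CHS1 value in lc/fas buds was called with the replicate block (-0.65, adjusted p = 0.000197), and not with the counts summed per replicate set (-0.58, unadjusted p = 0.0502, adjusted p = 0.99998). The levels of CHS1 at 2 dpi were 7.25, 7.24 and 12.9 RPM in lc/fas against 12.9, 17.2 and 24.5 in WT, and at 6 dpi 43.6, 56.7 and 63.5 in lc/fas against 65.5, 92.6 and 93.3 in WT. At 6 dpi all lc/fas libraries were below all WT libraries, and at 2 dpi the highest lc/fas library was level with the lowest WT library. No gene of the 5 was called in lc/fas buds without the block by edgeR or DESeq2, where 3 had an unadjusted p under 0.05 and 0.217% of all genes were called.

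**Figure D3:**
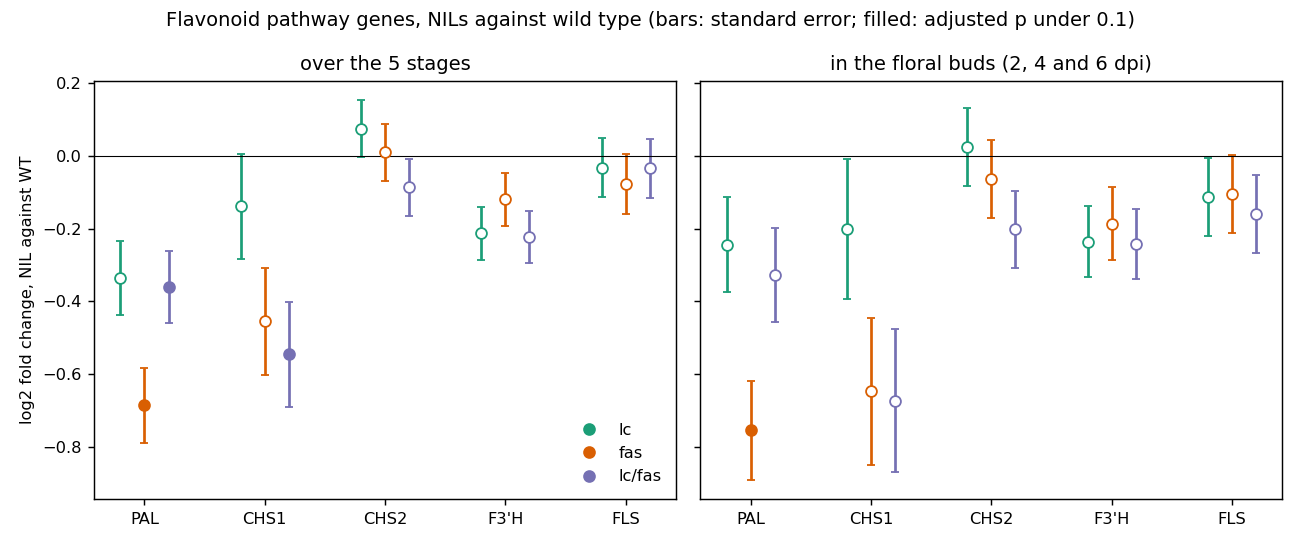
Log2 fold change of lc, fas and lc/fas against WT (y axis, bars: standard error) for the 5 genes, over the 5 stages (left) and in the floral buds (right), with filled points for an adjusted p under 0.1. PAL in fas is the lowest point of the left panel at -0.69, and in that panel CHS2 and FLS lie near 0 in all 3 NILs. In the right panel CHS2 and FLS are lowest in lc/fas, at -0.20 and -0.16.

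In lc, none of the 5 genes was called by edgeR or DESeq2 over the 5 stages, 2 had an unadjusted p under 0.05, and 0.323% of all tested genes were called. The means over the 5 stages of the 3 replicate sets were 25.5, 26.0 and 32.5 RPM for PAL in lc against 31.9, 32.3 and 39.9 in WT, with a log2 fold change of -0.33 (SE 0.10, adjusted p = 0.223) that passed the threshold without lc replicate 3 (adjusted p = 0.0427). F3'H had means of 32.4, 33.4 and 33.1 RPM in lc against 36.6, 37.0 and 39.0 in WT, with -0.21 (SE 0.07, adjusted p = 0.338). CHS1 had -0.14 (SE 0.14, adjusted p = 0.78). In the lc buds none of the 5 was called by edgeR or DESeq2, 1 had an unadjusted p under 0.05, and 0.0847% of all genes were called. The lc and WT sets overlapped for PAL, and for F3'H all 3 lc sets lay below the WT sets.

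CHS2 and FLS gave no call in any NIL over the 5 stages. CHS2 had a log2 fold change of 0.08 in lc (SE 0.08), 0.01 in fas (SE 0.08) and -0.09 in lc/fas (SE 0.08), and FLS had -0.03 in lc (SE 0.08), -0.08 in fas (SE 0.08) and -0.03 in lc/fas (SE 0.08). The means of the replicate sets of FLS were 534, 625 and 517 RPM in fas against 515, 678 and 519 in WT. CHS2 averaged 1533 ± 144 RPM in lc/fas and 1642 ± 196 RPM in WT (SD over replicate sets, n = 3 each).

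**Figure D4:**
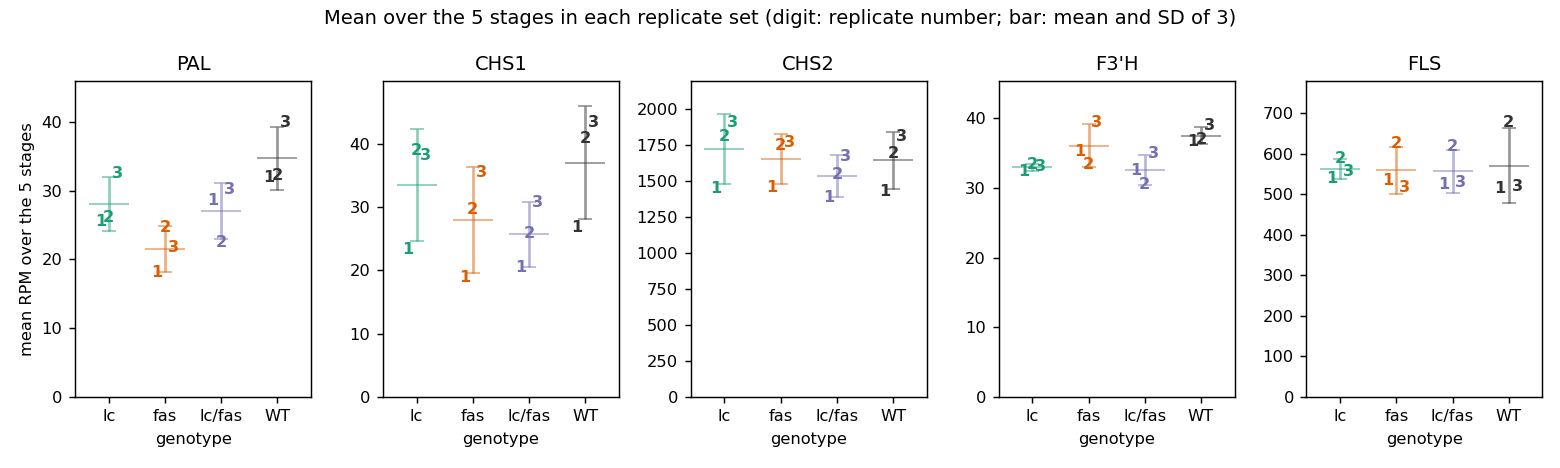
Mean RPM over the 5 stages (y axis, from 0) in each replicate set (digits: replicate number) of lc, fas, lc/fas and WT (x axis), with the mean and SD of 3 sets. For PAL the 3 sets of fas lie between 18.0 and 24.7 RPM, below the 3 WT sets at 31.9 to 39.9 RPM, and for CHS1 replicate 1 is the lowest set in every genotype.

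The F test of the genotype effect over the 5 stages called PAL (adjusted p = 8.36e-05) and CHS1 (adjusted p = 0.0438), 2 of the 5 genes, where 3.23% of all tested genes were called. Both are in the list of genes with a genotype effect that the study chose on the same 60 libraries, and the calls are not independent of that choice. The CHS1 call was lost without WT replicate 2 or 3 or lc/fas replicate 1 or 2 (adjusted p = 0.137 to 0.268) without the SYM (adjusted p = 0.137) and with the replicate set as a block in limma-voom (adjusted p = 0.329), while that of PAL was kept without any 1 replicate set (highest adjusted p = 0.00806). With the counts summed per replicate set neither was called (unadjusted p = 0.0103 for PAL and 0.139 for CHS1, adjusted p = 0.99998 for both). Whether lc and fas added up was asked with the lc by fas interaction, the difference between lc/fas and the sum of the single lines on the log2 scale. It was 0.66 for PAL (SE 0.15, adjusted p = 0.0273), 1 of 5 genes, where 0.164% of all tested genes were called: PAL had -0.33 (lc), -0.69 (fas) and -0.36 (lc/fas) against WT. The interaction call was lost without WT replicate 3, lc replicate 1, lc replicate 2, fas replicate 1 or lc/fas replicate 3 (adjusted p = 0.12 to 0.277) and with the replicate set as a block in limma-voom (adjusted p = 0.746). The interaction was not fitted on the sums per replicate set.

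Of the 43 other pathway genes, 32 passed the filter, and over the 5 stages 7 were called in fas, where 2.22% of all tested genes were called, and 4 in lc/fas, where 1.65% were. None was called in lc by edgeR, where 0.323% of all genes were called, 7 of the 32 had an unadjusted p under 0.05 and DESeq2 called 1. In fas, CHIL fell by 0.27 on the log2 scale (SE 0.07, adjusted p = 0.0161), F3H by 0.23 (SE 0.06, adjusted p = 0.0427) and 3GT by 0.19 (SE 0.06, adjusted p = 0.0964). Of the branch to lignin and chlorogenate, Solyc07g005760 fell by 0.35 (SE 0.06, adjusted p = 0.000562) and C3'H by 0.29 (SE 0.08, adjusted p = 0.0407). Solyc07g005760 was listed as HQT, apart from the gene listed as HCT. The study pairs Solyc07g005760 with Arabidopsis HCT, the transferase that links the pathway to shikimate esters. In the other direction, the ferulate 5-hydroxylase homolog F5H rose by 0.41 (SE 0.12, adjusted p = 0.0604) and the ligase homolog Solyc03g097030 by 0.38 (SE 0.11, adjusted p = 0.0523). In lc/fas, F3H fell by 0.33 (SE 0.06, adjusted p = 0.00113), CHIL by 0.25 (SE 0.07, adjusted p = 0.0338) and Solyc07g005760 by 0.25 (SE 0.06, adjusted p = 0.0335), and F5H rose by 0.58 (SE 0.12, adjusted p = 0.00192). The comparisons share the WT libraries. With the replicate set as a block in limma-voom, Solyc07g005760 was the only 1 called in fas (adjusted p = 0.0566), and F3H and F5H were called in lc/fas (adjusted p = 0.0522 and 0.0717). With the counts summed per replicate set, a fit in which 40 of the 43 genes passed the filter, edgeR called 0 in either line, with 6 in fas and 5 in lc/fas at an unadjusted p under 0.05. The count in fas was 3 without WT replicate 3 and 1 without fas replicate 2, that in lc/fas was 2 without WT replicate 3, lc/fas replicate 1 or lc/fas replicate 2, and that in lc was 1 without WT replicate 2, lc replicate 1 or fas replicate 3.

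The marker sums were compared between the genotypes beside these values. The summed floral organ genes were 422 to 458 RPM in fas, 467 to 517 in lc/fas, 402 to 413 in lc and 353 to 380 in WT at 2 dpi, with no overlap between any NIL and WT. They were 3279 to 3672 RPM in fas, 2963 to 3585 in lc/fas, 2906 to 3077 in lc and 2453 to 2714 in WT at 4 dpi, with no overlap between any NIL and WT, and 3662 to 5255 RPM in fas, 4749 to 4887 in lc/fas, 4598 to 5039 in lc and 3742 to 4447 in WT at 6 dpi. In the SYM they were 60.3 to 82.4 RPM in lc/fas and 60.4 to 72.7 in lc, above 49.6 to 58.2 in WT, and 52.0 to 77.8 in fas. The summed meristem genes of lc/fas lay above WT without overlap in the SYM (354 to 415 RPM in lc/fas and 248 to 322 in WT), at 2 dpi (478 to 520 and 416 to 432) and at 4 dpi (170 to 213 and 155 to 168), and those of lc did in the SYM (337 to 393 RPM). The meristem sum holds SlWUS and SlCLV3, the genes at which the lc and fas alleles lie. The floral organ sum holds TAG1 and TM5, which the study reported as higher in the mutants. Between genotypes the sums can therefore differ through these genes as well as through tissue composition, and these cannot be told apart. The part of these differences in the levels of PAL and CHS1 was not tested.

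The genes most like each of the 5 were sought by Pearson correlation over the 20 group means of log2(RPM + 1), among the 14473 tested genes that averaged 5 RPM or more. These points share their libraries, and the values are a description. For PAL the highest was 0.90 with Solyc11g071480, which the study pairs with the Arabidopsis gene HCT, followed by Solyc01g111830 and Solyc02g070500 (both 0.88). The identifier of Solyc11g071480 lies between those of SlCLV3 and the gene SlYABBY2b, where the study places the ends of the fas inversion. Whether its level in fas and lc/fas follows the inversion was not tested. For CHS1 the highest were Solyc06g073260, Solyc07g064990 and Solyc04g006980 (0.97 each), of which Solyc07g064990 ran from 0.969 to 101 RPM over the group means. For CHS2 they were Solyc03g111820 (0.92), Solyc06g059710 (0.90) and Solyc09g092740 (0.89), for F3'H Solyc09g019980 (0.96), Solyc07g025510 (0.95) and Solyc12g094540 (0.95), and for FLS Solyc07g055260 (0.95), Solyc05g013480 (0.92) and Solyc01g008230 (0.91). None of the 5 genes was among the 3 most like another of them. Over the group means CHS1 had a correlation of 0.75 with FLS, 0.61 with CHS2, 0.46 with PAL and -0.55 with F3'H.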

How the data were processed

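The values used were whole counts per gene, as deposited by the authors, for 34725 genes in 60 libraries of 20 groups with 3 biological replicates each. The authors ran FASTQC on the reads, trimmed with fqtrim, and used Rsubread with ITAG2.4 gene models. How reads were assigned to genes is not given in the sources used here. An unnamed last line, which in all 60 libraries equals how many genes reached 3 counts, was left out (at most 3.01% of a library).

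RPM was computed from library totals. Tests used edgeR 4.0.16 under R 4.3.3, with TMM scaling, a filterByExpr filter over the 20 groups and a robust quasi-likelihood fit, and Benjamini-Hochberg adjustment over 18901 genes and a threshold of 0.1. An additive model of genotype and stage gave effects over genotypes or stages, and a model of the 20 groups gave effects within them and in the buds. The fit was checked on simulated data. Both models take the libraries as independent, though stages of a replicate set came from inflorescences gathered together. After the group means were removed, stages of a set had mean correlations from 0.0926 (6 dpi and SYM) to 0.281 (2 dpi and F&IM). Totals of 441291 to 9172182 counts a library set the precision, and p-values measure the spread between these libraries only. Alternatives were DESeq2 1.42.0, limma 3.58.1 (voom), other scalings and filters, replicate blocks, sums per replicate set and leaving out each replicate set.

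The genes and lists were chosen with earlier results of these data known. Named list genes were to be up to 4 per list and comparison with the largest called change, plus the PAL run on chromosome 9. Only those with a homolog in the study's tables are named here. A listed glucosyltransferase whose homolog there names another enzyme was left out of all counts (it, too, was called higher at 4 dpi against 2 dpi). The most like genes were the 3 with the highest correlation. Same-numbered libraries of lc/fas and WT deviated together from their group means at every stage (15 of 15 pairs with a correlation over 0.1). The number was 13 of 15 for fas and 9 of 15 for lc. The replicate numbers were therefore taken to pair lc/fas with WT only, though the replicate block was fitted over all genotypes. Sequences and promoters of the genes were not analysed here.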

Additional observations from a re-analysis of the deposited data

Results flagged for a closer look

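The lc by fas interaction of PAL over the 5 stages differed from 0 by the test of the difference itself, with 0.66 on the log2 scale (SE 0.15, edgeR adjusted p = 0.0273). The call was lost without any 1 of 5 of the 12 replicate sets (adjusted p = 0.12 to 0.277) and with the replicate set as a block in limma-voom (adjusted p = 0.746). The stage means of PAL were lower in each of the 3 NILs than in WT at all 5 stages, and by less in lc/fas than the sum of the single lines. With 3 libraries a group, no single library was tested as standing apart.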

How the results depend on the processing

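At the stage steps over the 4 genotypes each count of called genes among the 5 stayed within 1.5 times under every alternative, while single calls were lost (CHS1 at 2 dpi, FLS in the F&IM, F3'H at 6 dpi) or gained (CHS2 at 2 dpi, FLS at 4 dpi) as given with each gene. No result over the 5 genes changed sign past the threshold in any of 2135 pairs of result and alternative, of which 73 lost and 21 gained a call. The genotype counts moved more. Summed per replicate set, the counts of called genes fell to 0 for fas against WT over the 5 stages, fas in the buds, lc/fas and the genotype effect, and to 0 for the other pathway genes in fas and in lc/fas. That fit has 12 sums, and it called 8 genes of the transcriptome in fas, against 419, 6 in lc/fas, against 311, and 12 for the genotype effect, against 610. Limma-voom with the replicate set as a block gave 0 of 5 for lc/fas, 1 for the genotype effect, 0 for the lc by fas interaction, and 1 and 2 of the other pathway genes in fas and lc/fas. The 4 floral stages without the SYM gave 0 of 5 for lc/fas, 1 for the genotype effect, and 1 and 2 of the other pathway genes in fas and lc/fas. DESeq2 called 1 of the other pathway genes in lc. Over all genes, total counts without TMM called 270 higher and 203 lower in fas, against 185 and 234 with TMM, and 5319 higher and 7020 lower at 6 dpi against the F&IM, against 6089 and 5935. Total counts without TMM, or no filter, gave 2 of the other PAL genes at 2 dpi in place of 4.

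With the replicate number as a block, 1 of the 5 genes was called in lc (PAL, adjusted p = 0.0587), 2 in fas over the 5 stages and 2 in the fas buds (CHS1 in addition, adjusted p = 0.0013 and 0.000723), 1 in the lc/fas buds, and 2 of the other pathway genes in lc. This replicate block called 1153 genes of the transcriptome in fas, against 419 without it. The numbers were taken as a pairing for lc/fas only, a choice made on these same libraries, in which 13 of 15 fas pairs also had a correlation over 0.1. For CHS1, replicate 1 was the lowest set in every genotype. The block was fitted over all genotypes, and a value under it is read as a hint from the data, in lc/fas as in fas and lc.

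Leaving out 1 replicate set at a time gave 0 to 1 of 5 genes in lc, 1 to 2 in fas, 0 to 3 in lc/fas, 0 to 2 in the fas buds, 0 to 1 in the lc/fas buds, 1 to 3 for the genotype effect and 0 to 1 for the lc by fas interaction. It gave 2 to 4 of the other PAL genes at 2 dpi, and 0 to 1, 1 to 10 and 2 to 5 of the other pathway genes in lc, fas and lc/fas. The causes were not tested.

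Depth limited PAL most, with 7 counts in fas at 6 dpi replicate 3. The promoter search planned for these genes was not run, since no promoter sequence was used here.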

Other observations

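The replicate number itself went with the level of some of the genes. In 18 of the 20 groups replicate 1 had the lowest CHS1 of the 3 libraries, and in 17 of 20 replicate 3 had the highest. CHS2 was lowest in replicate 1 in 17 of 20 groups, while F3'H was lowest in replicate 1 in 6 and FLS in 9. FLS was highest in replicate 2 in 16 of 20 groups. PAL was highest in replicate 3 in 14 of 20 groups and lowest in replicate 3 in 1. Of all 18901 tested genes, 1.64% had the same replicate number lowest in at least 18 groups, and the median gene had 10. After the group means were removed, CHS1 and CHS2 had a correlation of 0.82 over the 60 libraries, against 0.41 for PAL and CHS1 and 0.16 for CHS1 and FLS. The labels give no date or batch for a replicate number, and the source of this pattern was not tested.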
